A study of Mus musculus with 6 samples.

Results

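The 10 genes described here encode proteins of the contractile apparatus of smooth muscle and of peritubular myoid cells, the flat cells that wrap the seminiferous tubule. They were taken as a list of gene names (ACTA2, ACTG2, TAGLN, TAGLN2, CNN1, MYH11, MYL9, TPM1, TPM2 and DES), and every probe that the deposited table assigns to these names was used, which gave 19 of the 45281 probes on the array. The probes were read in primary Sertoli cells, the somatic cells of the seminiferous epithelium, prepared from C57BL/6J mice of 3 weeks. All cells were homozygous for the floxed Ctnnb1 allele, Ctnnb1(tm1Mmt/tm1Mmt), which after recombination by Cre gives a CTNNB1 protein that resists degradation. One treatment was an adenovirus for Cre (Ad-Cre) and the other, the control, an adenovirus for eGFP (Ad-eGFP), both for 24 h in medium without serum at a multiplicity of infection of about 50. Each treatment had 3 RNA samples, each hybridized to its own Illumina BeadChip array.

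The tubules were pooled before the digestion, and it is not stated whether the RNA samples of a treatment are separate cultures, so p-values may measure only technical spread. The series holds no arrays of cells with Ad-Cre but without the floxed allele, so the recombined allele and Cre or its virus cannot be told apart. The isolation had no sort, and the RNA is that of the whole culture. More cells of a type and more RNA per cell therefore cannot be told apart.

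Contraction of smooth muscle rests on thin filaments of actin covered by tropomyosin, on thick filaments of myosin with its light chains, and on calponin-like proteins that bind actin. Many genes of this apparatus carry CArG boxes, which bind serum response factor (SRF), and are switched on when SRF works with a cofactor of the myocardin family. In the testis, smooth muscle actin is the usual marker of peritubular myoid cells, whose contractions move sperm along the tubule, whereas tropomyosin 1 and transgelin 2 are made by many kinds of cell.

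The labels were checked with eGFP and with Sertoli cell markers. Differences are given as log2 fold changes, Ad-Cre over Ad-eGFP, with their standard error (SE) and the adjusted p of limma's test. The normalized log2 intensity of eGFP was 13.18, 13.14 and 12.72 with Ad-Cre and 14.99, 15.01 and 14.79 with Ad-eGFP, which is a difference of -1.91 (SE 0.14, adjusted p = 0.000368). The arrays of the treatments did not overlap. The probe was nevertheless bright on the Ad-Cre arrays too, at a mean of 13.02 beside 14.93 with Ad-eGFP. The check therefore rests on a difference of level and not on absence, and the source of the signal with Ad-Cre was not tested. All 14 Sertoli cell markers examined were detected on at least 3 arrays, with Cldn11, a tight junction protein, as the brightest, at 0.13 (adjusted p = 0.416). With Ad-Cre, 9 of the 14 fell and 0 rose past the threshold (limma, adjusted p under 0.05), and at an unadjusted p under 0.05 the counts were 9 and 1. Over all 15133 tested genes 1935 fell and 1579 rose. The median log2 fold change of the markers was -0.53, with 3 of them above 0, and their summed raw signal was 177705, 163137 and 164429 on the Ad-Cre arrays against 225173, 203750 and 204264 on the Ad-eGFP arrays. The transcription factors Sox9 and Wt1, named after their values were seen, fell by 0.57 and 0.66. Several of these markers belong to the genes the study selected on these arrays, so their direction is not independent evidence.

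Among the contractile genes, TPM1 and TAGLN2 rose with Ad-Cre, by 1.37-fold and 1.47-fold for the probes of TPM1 and by 1.61-fold for TAGLN2. The probe of TAGLN and that of TPM2 lay just short of the threshold, and the actins, myosin heavy chain and myosin light chain did not pass it. In all, 13 of the 19 probes, from 9 of the 10 genes, entered the test, and each of these was detected on all 6 arrays. The other 6 probes, with the sole probe of CNN1 among them, were detected on no array. Of the 13 tested probes, 3 were called at an adjusted p under 0.05, beside 22.9% of all 20855 tested probes. All 3 were higher with Ad-Cre (background 10.7%) and 0 were lower (background 12.2%). At an unadjusted p under 0.05, limma gave 7 higher and 0 lower, beside 7634 of all 20855 tested probes, 3919 of them lower. The methods' t-test gave 5 higher and 0 lower, beside 6923 over all probes, 3564 of them lower. For 7 of the 13 probes all Ad-Cre arrays were above all Ad-eGFP arrays, beside 20.4% of all tested probes, and for 0 all were below. The median log2 fold change of the 13 probes was 0.28, and that of all tested probes 0.00064. The share called was thus near the background, and the calls that were made lay on the higher side. With 3 arrays on each side, a two-sided exact permutation p cannot be smaller than 0.1.

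**Figure D1:**
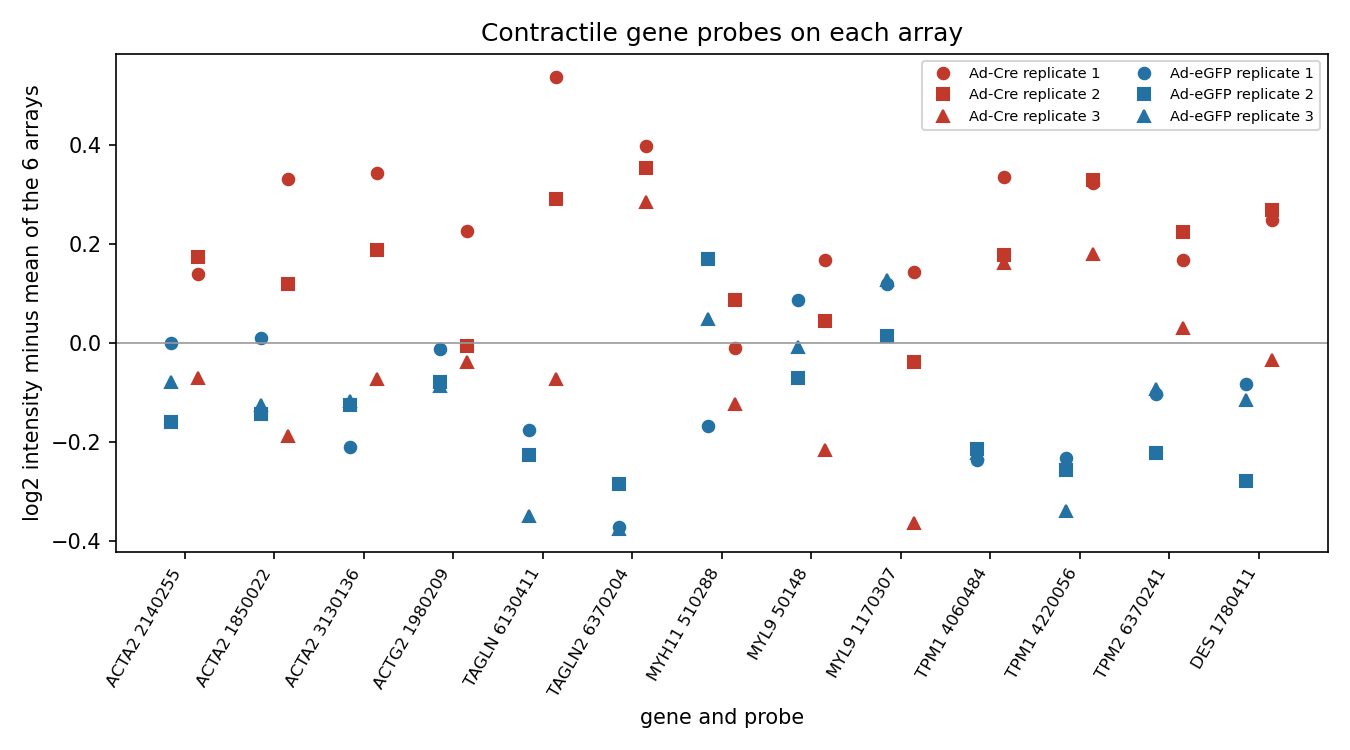
Normalized log2 intensity of the 13 tested probes of the contractile genes on each array, as the difference from the mean of the 6 arrays for that probe (vertical axis, log2 units), with Ad-eGFP arrays in blue, Ad-Cre arrays in red and 1 marker shape per replicate number. For TAGLN2 and both probes of TPM1 all red points lie above all blue points by a clear gap, and for MYH11 and both probes of MYL9 the colours mix.

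The tropomyosins, which lie along actin filaments and regulate the access of myosin, were read by 5 probes. TPM1 (chr9:67022590-67049672 in GRCm38.p6, by RefSeq) has 2 probes, both called. Probe 4060484 of TPM1 had a log2 intensity of 14.50, 14.34 and 14.33 on Ad-Cre replicates 1, 2 and 3, and 13.93, 13.95 and 13.94 on Ad-eGFP replicates 1, 2 and 3. The Ad-eGFP arrays were almost equal, and each Ad-Cre array stood well above them. This made a difference of 0.45 with an SE of 0.08 and an adjusted p of 0.00752. Probe 4220056 of TPM1 read 12.988, 12.995 and 12.845 with Ad-Cre and 12.43, 12.41 and 12.33 with Ad-eGFP. Here too the treatments were separated, with a gap larger than the spread within either. The difference was 0.55, with an SE of 0.08 and an adjusted p of 0.00373. Over the alternatives tried, the adjusted p of these probes stayed between 0.000451 and 0.0338 and between 0.000122 and 0.0210. Which transcripts of TPM1 each probe reads was not determined here, so the values say nothing of the smooth muscle form of the protein in particular.

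TPM2 (chr4:43513726-43523583), a tropomyosin made mostly in muscle, has 3 probes, and probe 6370241 alone was detected. Its log2 intensity was 12.03, 12.09 and 11.89 with Ad-Cre and 11.76, 11.64 and 11.77 with Ad-eGFP. All Ad-Cre arrays were above all Ad-eGFP arrays, and the nearest pair, Ad-Cre replicate 3 and Ad-eGFP replicate 3, was close together. The difference of 0.28 (SE 0.08) had an adjusted p of 0.0504. Without Ad-Cre replicate 3 the adjusted p was 0.0217, within a range from 0.0131 to 0.163 over the alternatives, of which 4 of 13 passed the threshold. Probes 1070088 and 990075 had mean raw signals between 118 and 134 and detection p-values between 0.0556 and 0.650.

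The smooth muscle actins form the thin filament itself. ACTA2 (chr19:34240336-34255585), the marker most used for myoid cells, was bright on every array by 3 of its 4 probes. Probe 2140255 of ACTA2 read 14.08, 14.12 and 13.87 with Ad-Cre and 13.94, 13.78 and 13.86 with Ad-eGFP. The ranges overlapped, because Ad-Cre replicate 3 was at the level of the controls. This probe differed by 0.16 (SE 0.09, adjusted p = 0.257). Probe 1850022 of ACTA2 read 13.99, 13.78 and 13.47 with Ad-Cre and 13.67, 13.51 and 13.53 with Ad-eGFP, so that Ad-Cre replicate 3 was the dimmest of all 6. It differed by 0.17 (SE 0.13, adjusted p = 0.397). The difference was 0.052 without Ad-Cre replicate 1 and 0.32 (adjusted p = 0.0561) without Ad-Cre replicate 3. Probe 3130136 of ACTA2 read 13.08, 12.93 and 12.67 with Ad-Cre and 12.53, 12.61 and 12.62 with Ad-eGFP, with no overlap but with Ad-Cre replicate 3 near the controls. Here the difference was 0.30 (SE 0.11, adjusted p = 0.0975), and without Ad-Cre replicate 3 the adjusted p was 0.0155, within a range from 0.0155 to 0.223. It was 0.0309 on all arrays without background correction. The 3 probes thus had the same sign, and none passed the threshold in the analysis used here. The 95% intervals reached from -0.06 to 0.38 for probe 2140255, from -0.14 to 0.49 for probe 1850022 and from 0.04 to 0.57 for probe 3130136, and those of the last 2 include the value found for TPM1 probe 4060484. Probe 4540376 of ACTA2 was detected on no array.

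ACTG2 (chr6:83512909-83536251), the actin of visceral smooth muscle, has 1 probe, which read 12.11, 11.88 and 11.84 with Ad-Cre and 11.87, 11.80 and 11.79 with Ad-eGFP. Ad-Cre replicate 1 stood apart, and the other Ad-Cre arrays were next to the controls. ACTG2 differed by 0.12 (SE 0.09, adjusted p = 0.388), and by 0.038 without Ad-Cre replicate 1. Since the coding sequences of the actin genes are much alike, some signal of these probes may come from other actins, which was not tested.

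The calponin-like proteins TAGLN, TAGLN2 and CNN1 bind actin filaments. TAGLN (chr9:45929628-45936058), an early marker of smooth muscle differentiation, read 10.72, 10.47 and 10.11 with Ad-Cre and 10.01, 9.96 and 9.83 with Ad-eGFP for probe 6130411. All Ad-Cre arrays were higher, but they were spread widely among themselves, and Ad-Cre replicate 3 was close to the highest control. TAGLN differed by 0.50, with an SE of 0.15 and an adjusted p of 0.0523. The adjusted p was 0.00891 without Ad-Cre replicate 3 and ranged from 0.00891 to 0.156 over the alternatives, with 6 of 13 past the threshold, among them the replicate number as a block (0.0318). The other probe of TAGLN, 3800594, was detected on no array.

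TAGLN2 (chr1:172500246-172507375) is a relative of TAGLN that is also made outside muscle. Its probe, 6370204, read 13.16, 13.12 and 13.05 with Ad-Cre and 12.39, 12.48 and 12.39 with Ad-eGFP. The arrays fell into separate groups, each with little spread. The difference of 0.69 (SE 0.07, adjusted p = 0.00126) was the largest among the 13 probes, and it was called in all 13 alternatives, with an adjusted p of at most 0.00896. The study used thresholds of 0.05 for p, taken here without adjustment, and 1.5-fold for size. At these, a plain t-test, without the empirical Bayes step that the study also names, took 1 of the 13 probes, that of TAGLN2. Over all tested probes it took 1622. A selection on these same arrays at these thresholds thus holds TAGLN2, so its call is not independent evidence.

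CNN1 (chr9:22099221-22109221), calponin 1, marks fully differentiated smooth muscle. Its only probe, 5550544, had mean raw signals of 126 with Ad-Cre and 119 with Ad-eGFP and detection p-values from 0.115 to 0.478. It was not above background on any array, and no difference can be given for it.

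Myosin is the motor of contraction. MYH11 (chr16:14194527-14292188), the smooth muscle heavy chain and the member most restricted to smooth muscle, read 9.63, 9.72 and 9.52 with Ad-Cre and 9.47, 9.81 and 9.69 with Ad-eGFP for probe 510288. The arrays of the treatments were fully mixed. MYH11 differed by -0.03 (SE 0.11, adjusted p = 0.855), with a 95% interval from -0.29 to 0.22, and its sign turned when Ad-Cre replicate 3 (0.02) or Ad-eGFP replicate 2 (0.044) was left out. The interval lies below the change measured for either probe of TPM1, although the difference between these genes was not tested. Probe 1770341 of MYH11 was detected on no array.

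MYL9 (chr2:156775408-156781657), the regulatory light chain whose phosphorylation starts contraction, has 2 probes. Probe 50148 of MYL9 read 12.39, 12.26 and 12.00 with Ad-Cre and 12.31, 12.15 and 12.21 with Ad-eGFP. The highest and the lowest of the 6 values were both from Ad-Cre arrays. The difference was -0.0043 (SE 0.11, adjusted p = 0.983), and it was above 0 with median scaling (0.036) and when Ad-Cre replicate 3 (0.10) or Ad-eGFP replicate 1 (0.037) was left out. Probe 1170307 of MYL9 read 10.60, 10.41 and 10.09 with Ad-Cre and 10.57, 10.47 and 10.58 with Ad-eGFP. Again the Ad-Cre arrays surrounded the controls, and the difference was -0.17 (SE 0.13, adjusted p = 0.387).

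DES (chr1:75360292-75368579) encodes desmin, the intermediate filament of muscle cells, which links the contractile units to each other and to the membrane. Its probe, 1780411, read 9.37, 9.39 and 9.09 with Ad-Cre and 9.04, 8.84 and 9.01 with Ad-eGFP. All Ad-Cre arrays were above all controls, with Ad-Cre replicate 3 only slightly so. DES differed by 0.32 (SE 0.11, adjusted p = 0.0725). The adjusted p was 0.0170 without Ad-Cre replicate 3 and lay between 0.0170 and 0.206 over the alternatives.

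The members varied together within the Ad-Cre treatment. With 1 probe per gene, the brightest, 9 of the 9 tested genes lay above their own treatment mean on Ad-Cre replicate 1, 7 of 9 on Ad-Cre replicate 2 and 0 of 9 on Ad-Cre replicate 3. Over all tested genes the shares above the treatment mean were 47.0%, 49.6% and 54.0% on the same arrays. The median deviation of the 9 genes on Ad-Cre replicate 3 was -0.11 on the log2 scale. Among the Ad-eGFP arrays 6, 4 and 5 of the 9 genes lay above the treatment mean on replicates 1, 2 and 3, with median deviations of 0.05, -0.02 and 0.00092. The summed raw signal of the 9 genes was 69465, 64855 and 62233 on the Ad-Cre arrays and 55038, 47484 and 47171 on the Ad-eGFP arrays. On this scale, which the brightest probes dominate, the treatments did not overlap. This rested on the called genes TPM1 and TAGLN2, since without them Ad-Cre replicate 3 lay below Ad-eGFP replicate 1.

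Without Ad-Cre replicate 3, 7 of the 13 probes were called in place of 3, all of them higher, and 5646 probes over the whole array in place of 4774. When any other array was left out the number of member probes called was 3, whereas the total over the array fell to between 2472 and 3569. The probes that joined the calls without Ad-Cre replicate 3 were those of TAGLN, TPM2 and DES and probe 3130136 of ACTA2. What sets that array apart for these genes was not tested. In the deposited order it is the last array, after those of Ad-eGFP, while the other Ad-Cre arrays come first. Whether this order bears on the values was not tested.

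Each signal is a mean over many copies of the same bead. The 19 probes were read on 25 to 68 beads per array. The deposited bead spread of the 13 tested probes was between 1.63% and 4.71% of the signal. Over the probes of each whole array, with a minimum raw signal of 500, the bead spread fell with the bead number. The slope was between -0.45 and -0.41 on logarithmic axes, near the slope of a standard error. For probe 6130411 of TAGLN the bead spread was between 2.67% and 3.20%. The SD between the Ad-Cre replicates corresponds to 23.7% of the signal and that between the Ad-eGFP replicates to 6.42%. For probe 6370204 of TAGLN2 the SD between replicates was 4.06% with Ad-Cre and 3.58% with Ad-eGFP, beside a bead spread between 2.39% and 3.29%.

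Of 34 other genes of the contractile apparatus and its anchors, 29 were tested, and 5 of them rose and 0 fell with Ad-Cre (limma, adjusted p under 0.05), with counts of 11 and 1 at an unadjusted p under 0.05. Of all tested genes 23.2% were called, so the list was not called more often than the background. Counts take the brightest probe of a gene, and of the genes it left uncalled another probe rose for 3 and fell for 2. The median log2 fold change of the list was 0.18, beside -0.0063 for all tested genes. Actc1, the cardiac actin, rose by 0.63 (SE 0.14, adjusted p = 0.018), from 5.45, 5.34 and 4.97 with Ad-eGFP, where a single array detected it, to 5.98, 5.93 and 5.74 with Ad-Cre. Its control level is near background, so the size is uncertain, and without background correction the difference was 0.23. Actc1 entered the test through its Ad-Cre arrays, and it was not tested where detection by all 6 arrays was required. With no filter its adjusted p was 0.0301. The call was lost without Ad-Cre replicate 1 (adjusted p = 0.0535) or 2 (0.0595). Myl12a, a regulatory light chain of non-muscle myosin, rose by 0.54 (SE 0.08, adjusted p = 0.0050), from 9.88, 9.84 and 9.71 to 10.41, 10.38 and 10.26. Both genes had every Ad-Cre array above every control. Actg1, a cytoplasmic actin, rose by 0.45 (adjusted p = 0.0315) and Actn1, which bundles actin filaments, by 0.35 (adjusted p = 0.0121). Tpm4, a tropomyosin of non-muscle cells that was named after its value was seen, rose by 0.27 (adjusted p = 0.0297) by its brightest probe, and its other probe, at 0.43, was not called. Actb, the brightest gene of the list, differed by 0.19 (adjusted p = 0.121). Acta1, Tagln3, Myh14, Synpo2 and Pln were detected on no array. The genes of this list that rose are not specific to smooth muscle, and among them are the actin of the heart and proteins that all cells make.

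Single arrays changed this count. Leaving out Ad-Cre replicate 3 gave 11. The count was 2 when Ad-Cre replicate 1, Ad-Cre replicate 2 or Ad-eGFP replicate 3 was left out, and 3 when this was Ad-eGFP replicate 2. Over the alternatives the adjusted p reached 0.105 for Actg1, 0.0825 for Actc1, 0.0542 for Actn1 and 0.0995 for Tpm4, and no more than 0.0244 for Myl12a. With the replicate number as a block the calls of Actg1 (adjusted p = 0.0611) and Tpm4 (adjusted p = 0.0654) were lost.

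The regulators examined were SRF, its cofactors and related factors, 15 genes of which 11 were tested. With Ad-Cre 3 rose and 0 fell (limma, adjusted p under 0.05; the counts at an unadjusted p under 0.05 were the same), beside 23.2% of all tested genes called in either direction, so the share is near the background. The median log2 fold change was 0.06, and 1 of the 3, Tead4, entered the test through the Ad-Cre arrays alone. Srf itself read 10.50, 10.42 and 10.42 with Ad-Cre and 10.47, 10.58 and 10.47 with Ad-eGFP, a difference of -0.06 (SE 0.07, adjusted p = 0.602). Its arrays overlapped and lay close together. Myocd, which encodes myocardin, read 6.88, 6.85 and 7.03 with Ad-Cre and 7.10, 6.96 and 6.82 with Ad-eGFP, a difference of -0.04 (SE 0.10, adjusted p = 0.798) whose sign turned without Ad-eGFP replicate 1 (0.03). The values of Myocd were mixed between the treatments.

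Klf4, a transcription factor known to repress smooth muscle genes through SRF and myocardin, rose most. It read 9.36, 9.35 and 9.67 with Ad-Cre and 7.66, 7.78 and 7.43 with Ad-eGFP. On Ad-Cre replicate 3, where the contractile genes were lowest within the treatment, Klf4 was highest. So were Wwtr1, Yap1, Myocd and Fhl1. How many of all tested genes were highest on that array was not counted. By another measure, 54.0% of them lay above their treatment mean on it. This is an observation on a single array, and a link to the contractile genes was not tested. Klf4 differed by 1.84 (SE 0.12, adjusted p = 0.000321). Klf4 is among the genes that the study names as raised on these arrays.

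Wwtr1, which encodes the TEAD coactivator TAZ, rose by 0.47 (SE 0.09, adjusted p = 0.00993), from 10.63, 10.75 and 10.77 to 11.07, 11.20 and 11.30, and all Ad-Cre arrays were above the controls. Of its 3 tested probes this one, the brightest, was the 1 called, and the lowest difference among them was 0.20. Tead4, a DNA-binding partner of TAZ, was detected on all 3 Ad-Cre arrays and on none of the Ad-eGFP arrays. Its control level is therefore a bound, and the difference is at least 1.24-fold on the corrected scale. Limma's adjusted p of 0.00222 belongs to the measured values, a difference of 0.63, and does not test that bound. That bound sets the mean of the Ad-Cre arrays against, on each Ad-eGFP array, the higher of the probe's own signal and the lowest signal among detected probes. Without background correction, which compresses dim probes, Tead4 differed by 0.23. It was not tested when an Ad-Cre array was left out, and with no filter its adjusted p was 0.00315. Yap1, the relative of TAZ, differed by -0.19 (SE 0.11, adjusted p = 0.261), and without Ad-Cre replicate 3 it was called lower, at -0.29 (adjusted p = 0.0390). Mkl1, a myocardin-related factor detected on 3 arrays, differed by 0.30 (SE 0.21, adjusted p = 0.36). Its difference was 0.12 without Ad-eGFP replicate 1, 0.47 without Ad-Cre replicate 3 and 0.11 without background correction. The LIM proteins that can act with SRF gave 0.21 for Tgfb1i1 (adjusted p = 0.138), 0.02 for Fhl1 (adjusted p = 0.839), -0.21 for Fhl2 (adjusted p = 0.169) and 0.06 for Csrp2 (adjusted p = 0.656). Fhl1 was the brightest gene of the list, and Mkl2, Elk1, Elk4 and Tead1 were detected on no array.

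**Figure D2:**
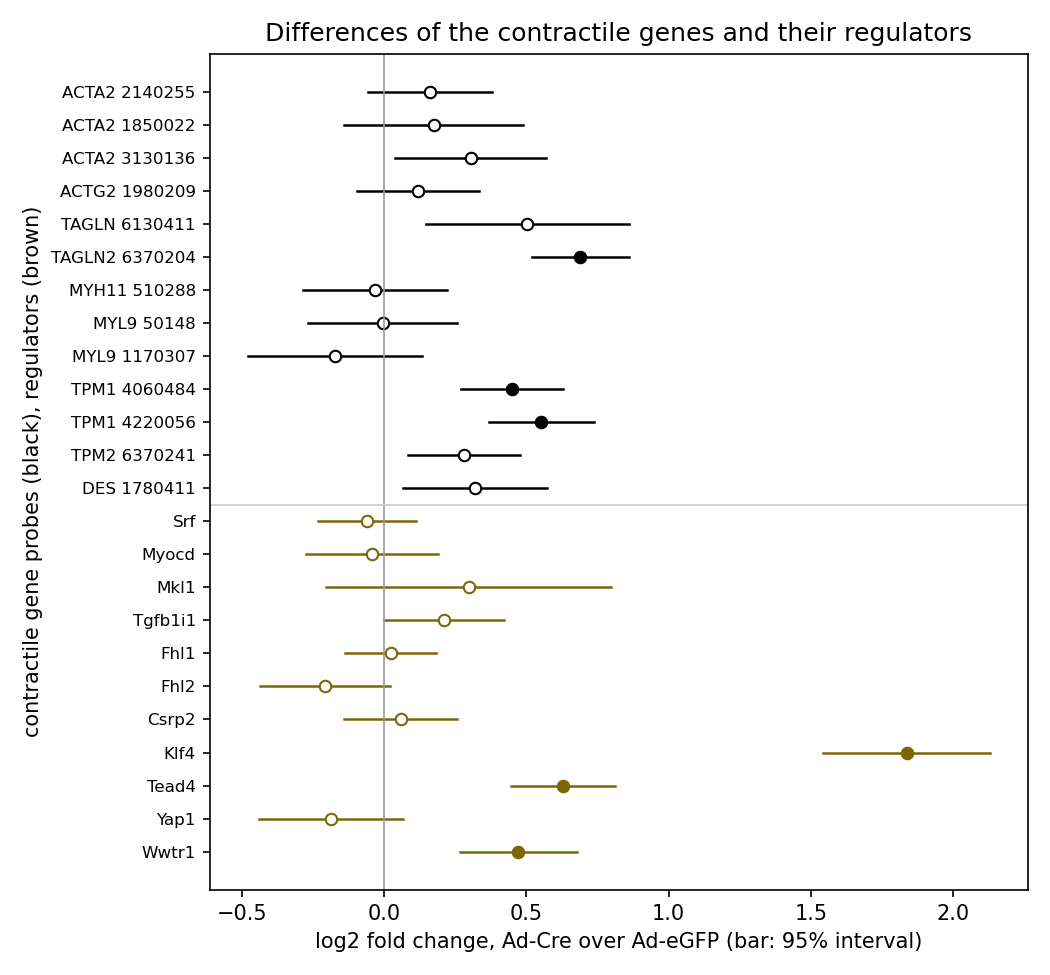
Log2 fold change of Ad-Cre over Ad-eGFP (horizontal axis) for the 13 tested probes of the contractile genes (black) and the 11 tested regulators (brown), each with its 95% interval from 3 arrays per treatment and with filled points for an adjusted p under 0.05. TAGLN2 and both probes of TPM1 are filled among the contractile genes and Klf4, Tead4 and Wwtr1 among the regulators, and the point of Tead4 rests on a control level below detection.

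Genes that SRF with its cofactors or TEAD with YAP and TAZ can induce outside the contractile apparatus were tested too, 11 in number. With Ad-Cre 2 rose and 1 fell, beside 23.2% of all tested genes called, another probe rose for 1 further gene and fell for 1, and the median log2 fold change was 0.17. Ankrd1, a nuclear ankyrin repeat protein and a much used target of YAP, rose by 1.15 (SE 0.11, adjusted p = 0.000758), from 10.88, 10.72 and 10.52 to 11.91, 11.78 and 11.87. Itga5, the fibronectin receptor subunit, rose by 0.85 (SE 0.10, adjusted p = 0.00208). Zyx, a protein of focal adhesions, fell by 0.42 (SE 0.07, adjusted p = 0.00565), from 15.22, 15.27 and 15.26 to 14.80, 14.83 and 14.85. The arrays of the treatments were separated for all 3 genes. Ctgf, the brightest of the list, differed by 0.12 (adjusted p = 0.247). Without Ad-Cre replicate 3 the list had 5 calls. Ankrd1 and Itga5 also passed the study's thresholds, as applied for TAGLN2, on these arrays, as did Tnc and Rgs4, named below. Such calls are not independent evidence, and the same holds for any other gene named here that passes them, marked or not.

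Of 10 matrix genes that go with the contractile state of myofibroblasts, 9 were tested, 2 rose and 0 fell (limma, adjusted p under 0.05; 3 and 0 at an unadjusted p under 0.05), beside 23.2% of all tested genes called, and the median log2 fold change was 0.16. Tnc, which encodes tenascin C and was called by 2 of its 3 tested probes, rose by 0.87 (SE 0.11, adjusted p = 0.00241), from 9.43, 9.82 and 9.68 to 10.44, 10.57 and 10.53. Col1a1, a chain of collagen I, read 11.21, 11.22 and 10.67 with Ad-Cre and 10.21, 10.51 and 10.49 with Ad-eGFP, with Ad-Cre replicate 3 closest to the controls. Col1a1 differed by 0.63 (SE 0.17, adjusted p = 0.0338). The call of Col1a1 was lost without Ad-Cre replicate 1 (adjusted p = 0.092) or 2 (0.101), and likewise for Ad-eGFP replicate 1 (0.0978), 2 (0.065) or 3 (0.0746), and the list then had 1 call. The call was also lost with the replicate number as a block (adjusted p = 0.0523), and over all its alternatives the adjusted p of Col1a1 was between 0.00467 and 0.126. Sparc, the brightest gene of the list, differed by -0.03 (adjusted p = 0.778), with the sign turned without Ad-eGFP replicate 2 (0.0027), and Postn was detected on no array.

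Since members of the list are also made by other cells of the testis, markers of those cells were read on the same arrays. Of 8 markers of pericytes and vascular smooth muscle, 5 were tested, and 3 rose and 0 fell past the threshold (limma; the same counts at an unadjusted p under 0.05), beside 23.2% of all tested genes called. The markers that rose were Mcam, the brightest of the list, by 0.94 (adjusted p = 0.000797), Rgs4 by 0.78 (adjusted p = 0.00544) and Cspg4 by 0.49 (adjusted p = 0.0458). Of these, Rgs4 and Cspg4 were named after their values were seen. Mcam also passed the study's thresholds, as applied for TAGLN2, on these arrays, and it is an adhesion molecule of other cells too. The adjusted p of Cspg4 rose to 0.140 at most and passed the threshold in 7 of 13 alternatives. Without background correction the differences of Rgs4 and Cspg4 were 0.35 and 0.28. The median of the tested markers was 0.49, and their summed raw signal was 3847, 3524 and 3567 on the Ad-Cre arrays and 2350, 2022 and 1996 on the Ad-eGFP arrays. Most of this sum is Mcam, with a mean raw signal of 2192 over the arrays, beside 138 to 229 for the other tested markers. Rgs5, Kcnj8 and Abcc9, which define pericytes, were detected on no array.

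Of 8 markers of interstitial fibroblasts, which peritubular cells share, 6 were tested, 0 rose and 1 fell (limma; 0 and 2 at an unadjusted p under 0.05), beside 23.2% of all tested genes called. The gene that fell was Ptch1, by 0.58 (adjusted p = 0.00436) for 1 of its 2 probes, and it was named after its value was seen. Dcn, the brightest, differed by 0.11 (adjusted p = 0.38), and Lum and Dpt were detected on no array. The median was -0.05, with summed raw signals of 6562, 6475 and 6771 with Ad-Cre and 6980, 6467 and 6057 with Ad-eGFP. On this sum the arrays of the treatments overlapped.

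Of 8 endothelial markers 3 were tested, and Esam alone rose, beside 23.2% of all tested genes called. Esam, named after its value was seen, rose by 0.68 (adjusted p = 0.0247), a call kept in 6 of 12 alternatives. The difference of Esam was 0.30 without background correction, and its adjusted p was 0.0541 with the replicate number as a block. Pecam1, the brightest, differed by -0.18 (adjusted p = 0.321), and Kdr, Tek, Tie1, Vwf and Emcn were detected on no array. The summed raw signal of the 3 tested markers was between 527 and 554 with Ad-Cre and between 487 and 516 with Ad-eGFP. Of 10 genes of skeletal and cardiac muscle, 9 are on the array and 2 were tested, with 0 called (limma; 0 higher and 1 lower at an unadjusted p under 0.05), beside the same 23.2%. The brightest was Actn2 at 0.20 (adjusted p = 0.23). Myh6, Myh7, Tnnt3, Ckm, Mb and Ttn were detected on no array. The summed raw signal of the tested genes of striated muscle was between 375 and 400 with Ad-Cre and between 349 and 397 with Ad-eGFP.

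Of 7 Leydig cell markers 3 were tested and 0 were called (limma; 0 higher and 1 lower at an unadjusted p under 0.05), beside 23.2% of all tested genes. Their summed raw signal was between 847 and 1034 with Ad-Cre and between 982 and 1130 with Ad-eGFP. Cyp11a1 was the brightest, at -0.28 (adjusted p = 0.0923), but its dimmer probe rose by 0.53 (adjusted p under 0.05), so the probes of this gene disagree. Cyp17a1, Insl3, Lhcgr and Hsd3b6 were detected on no array. Of 8 germ cell markers 5 were tested and 1, Sohlh1, fell, by 0.59 (adjusted p = 0.00517), beside 23.2% of all tested genes called. Another probe fell for 1 further gene. Ldhc was the brightest, at 0.03 (adjusted p = 0.827), with the sign turned without Ad-Cre replicate 3 (-0.0067). Sycp3, Stra8 and Prm1 were detected on no array, and the summed raw signal was 53205, 49549 and 53199 with Ad-Cre and 55335, 47468 and 47034 with Ad-eGFP. Most of this sum is the probe of Ldhc, with a mean raw signal of 46836 over the arrays, beside 388 to 2748 for the other tested markers. The sum therefore says little of the other germ cell markers. Of 8 macrophage markers 6 were tested, and 1 rose and 1 fell, beside the same 23.2%. Lyz2, the brightest, fell by 0.35 (adjusted p = 0.0276), a call made by 1 of its 2 tested probes, kept in 7 of 13 alternatives and lost with the replicate number as a block (adjusted p = 0.0526). Csf1r, not detected with Ad-eGFP, was at least 1.54-fold higher with Ad-Cre on the corrected scale. Limma's adjusted p of 0.00204 belongs to the measured values, a difference of 0.96, and does not test that bound. Csf1r differed by 0.36 without background correction, entered the test through the Ad-Cre arrays alone and was not tested when any of them was left out. Its adjusted p with no filter was 0.00308. Ptprc and Itgam were detected on no array, and the summed raw signal was between 3563 and 3873 with Ad-Cre and between 3843 and 4528 with Ad-eGFP. The part of any of these cell types in the values of the contractile genes was not tested.

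Promoter windows of RefSeq, from 250 bases before to 50 bases after the start that the window table takes for a gene, were matched for 7 of the 10 genes: Acta2, Tagln2, Cnn1, Myl9, Tpm1, Tpm2 and Des. They were not matched for Actg2, Tagln and Myh11. The table's start is the outer end of the coordinates given above for Tagln2 and Des, and lies 212 bases inside them for Acta2, 459 for Tpm1, 56 for Myl9, 32 for Cnn1 and 29 for Tpm2. The windows were searched for the CArG box, which is CC, then 6 letters that are each A or T, then GG, and reads as the same pattern on both strands. It was found in 1.63% of 32851 windows, and with 1 inner G or C allowed in 9.98%. The CTTTGA core of the sites bound by TCF factors, the partners of CTNNB1, was searched on both strands and found in 16% of the windows. The strict CArG box was found in the window of Myl9, 1 time. With 1 inner G or C allowed it was found 2 times in each of Acta2 and Myl9 and 0 times in Tagln2, Cnn1, Tpm1, Tpm2 and Des. The TCF core was found in 0 of the 7 windows. The matches of both genes are shown as the letters by which the CArG box was counted. They are printed with 10 bases on each side, in GRCm38.p6 and 5′ to 3′ on the strand of the gene, with the match in capitals and its distance from the table's start.

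Acta2, chr19:34255438-34255467, minus strand, match 84 to 75 bases before the table's start: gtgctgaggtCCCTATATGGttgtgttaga

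Acta2, chr19:34255388-34255417, minus strand, match 34 to 25 bases before the table's start: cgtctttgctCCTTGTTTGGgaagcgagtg

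Myl9, chr2:156775293-156775322, plus strand, match 161 to 152 bases before the table's start: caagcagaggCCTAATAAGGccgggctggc

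Myl9, chr2:156775355-156775384, plus strand, match 99 to 90 bases before the table's start: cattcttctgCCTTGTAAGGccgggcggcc

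The match of Myl9 farther from that start is the strict form, and the others hold 1 inner G or C. A match is a run of letters and was not shown to be bound, and a window without one says nothing of sites elsewhere at the gene.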

How the data were processed

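The authors deposited the raw intensity of each probe on 6 arrays, neither normalized nor corrected for background, with a detection p-value from the authors' scan and, as further deposited columns, a bead spread (named bead SD) and a bead number. The authors' table of their own comparison holds means, fold changes and p-values per probe and was not used. Background correction and quantile normalization used neqc of limma 3.58.1 in R 4.3.3, which inferred the background from detection p-values, added an offset of 16 and gave log2 values. The 20855 probes detected (p under 0.05) by 3 or more of the 6 arrays were tested with lmFit and eBayes for Ad-Cre minus Ad-eGFP, without covariates and with Benjamini-Hochberg adjustment over all tested probes. A probe or gene is called at an adjusted p under 0.05, and fold changes are on the log2 scale of the offset signal, which understates dim probes. Per array between 20288 and 20901 probes were detected, and the number of arrays limits the precision. The procedure was tested on simulated data.

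Gene lists take 1 probe per gene, the brightest tested. List names were matched to the table's symbols directly or through RefSeq synonyms. Named are every probe of the 10 genes, all tested regulators, of the other lists the 4 genes with the largest change among those called and the brightest gene, of each marker list the brightest gene and the markers no array detects, and eGFP. Tpm4, Rgs4, Cspg4, Ptch1, Esam, Sohlh1, Csf1r, Sox9 and Wt1 were named after their values were seen. The members and lists were chosen with earlier results of these data known. The alternatives were no background correction, an offset of 50, median scaling, no filter, detection at p under 0.01 by all 6 arrays, the methods' t-test (equal variances, leaving out their empirical Bayes step), the replicate number as a block, and leaving out each array.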

Additional observations from a re-analysis of the deposited data

How the results depend on the processing

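Over the 13 alternatives the calls of TPM1 (both probes) and TAGLN2 held. The number of contractile probes called was 7 without background correction, 6 with an offset of 50 and 6 with detection on all arrays at p under 0.01, and the totals were then 5760 and 5344 of 20855 and 4883 of 16558 probes. Leaving out single arrays gave 3 to 7, and for all probes 2472 to 5646. With the replicate block it was 4, and for all probes 4162, beside 4774 without it. The replicate numbers were not taken as pairs: same-numbered arrays deviated together with r = 0.157, 0.055 and 0.041, and Ad-Cre replicate 3 also had r = 0.041 with Ad-eGFP replicate 2.

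The other contractile genes called numbered 11 without background correction, 10 of them higher, 3 by the methods' t-test and 2 to 11 with single arrays left out. Of the regulators, 2 to 3 were called without single arrays, with Yap1 called lower without Ad-Cre replicate 3. The genes induced through SRF or TEAD gave 6 calls without background correction, 6 with an offset of 50, 6 with the stricter detection, 5 by the methods' t-test and 3 to 5 without single arrays. The matrix genes gave 1 call with no filter, 1 by the methods' t-test, 1 with the replicate block and 1 to 3 without single arrays.

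Signs turned for 5 results, none of them called. With single arrays left out, the difference ranged from -0.090 to 0.10 for MYL9 probe 50148 (0.036 with median scaling), from -0.13 to 0.044 for MYH11 probe 510288, from -0.11 to 0.030 for Myocd, from -0.079 to 0.0027 for Sparc and from -0.0067 to 0.065 for Ldhc. The causes were not tested. The median log2 fold change of all tested probes moved to 0.02 at most, with median scaling. Probes near the negative controls have compressed differences.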
